A study of Mus musculus with 6 samples.

Results

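The DNA replication and mitosis genes described here are 38 genes that were followed in PA6 cells, a murine stromal cell line, after 3 h of culture with or without a growth factor. Their members were chosen by name, as every probe whose gene symbol in the deposited array table is one of the 38, and all 38 had at least 1 probe (79 probes of 45281 in all). Confluent PA6 monolayers were kept for 3 h in a serum-free medium that held no growth factor (-GFs), recombinant FGF2 at 20 ng/ml or recombinant BMP4, at 10 ng/ml according to the labels, while the methods on the co-cultures give a lower dose of BMP4. Each group had 2 biological replicates, whose RNA was read on Illumina MouseWG-6 v2.0 arrays (6 in all), and each biological replicate was a set of 3 wells, 1 of each group. Every sample came from 1 established line with no genetic change named in the labels, and the cells were confluent in all groups. The values are log2 intensities after cubic spline normalization, and a probe was counted as detected at a detection p under 0.05.

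A cell that divides first copies its DNA. Origins of replication are licensed when CDC6 and CDT1 load the MCM2 to MCM7 ring, which then unwinds the double helix with the GINS complex while PCNA clamps the polymerases to the template. RRM1, RRM2 and TYMS supply the nucleotides. In mitosis, cyclin B with its kinase, PLK1 and the Aurora kinases drive the cell forward, motors and bundling proteins build the spindle, and the spindle checkpoint holds back the anaphase-promoting complex until every chromosome is attached. Replication genes are known to be transcribed earlier in the cycle through E2F sites, and many mitosis genes later through CHR elements and CCAAT boxes. Fewer cells usually cycle at confluence, and in bulk RNA a smaller share of cycling cells and less RNA per cycling cell cannot be told apart.

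Of the 38 members, 29 passed the detection filter, which asked for detection on both arrays of at least 1 group. All 13 replication members passed, but 16 of the 25 mitosis members. Of the 9 others, CCNA2 and CCNB2 (cyclins), BUB1, TTK and UBE2C (checkpoint and anaphase), CENPE and CENPF (centromere) and KIF20A (a spindle motor) were not detected on any of the 6 arrays. KIF11, the motor that pushes the spindle poles apart, was detected on the 3 arrays of replicate 1 and on none of replicate 2, and was not tested. By array, 29 and 29 members were detected in -GFs medium, 27 and 27 with FGF2, and 28 and 28 with BMP4. Of the 29, 25 were detected on all 6 arrays. PCNA passed only through the FGF2 group and ESPL1 only through the -GFs group, in which each is highest, and MCM3 and CDC6 passed without the FGF2 group, so that the filter favours the direction of their differences. The filter left 11872 genes in all, with which the members are compared below. The stromal label was checked against markers, and all 8 stromal names were detected on all 6 arrays and 0 of 4 haematopoietic names on any. Of the other types, POU5F1 (1 of 3 pluripotent names), CDH1 (1 of 3 epithelial names) and TEK (endothelial) were also detected on all 6, and KDR (endothelial) on 4, with the other 3 endothelial names on none. Over the arrays, 15509 to 16459 probes were detected and the median intensity was 153.4 to 168.1, and precision is limited by how few arrays there were.

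With FGF2 the replication and mitosis genes were lower than in -GFs medium, mostly by little. The log2 fold change was below 0 in 26 of the 29 members tested (89.7%), against 52.4% of all genes tested, with a median of -0.34 in the members and -0.02 in all genes. Among replication members 10 of 13 were lower (median -0.30), and among mitosis members 16 of 16 (median -0.35), although MKI67 turned to 0.11 with limma's neqc normalization. KIF23, NUSAP1, TPX2, PRC1 and TOP2A also turned in some alternative fits. A second detected probe of KIF23 gave 0.07, while a brighter probe filed under KNSL5, an older name of KIF23, gave -0.41. By replicate number, both pairs of arrays were lower in 13 of 16 mitosis members (81.2%, against 39.3% of all genes). TPX2, PRC1 and MKI67 were higher with FGF2 in replicate 2 (0.03, 0.05 and 0.33). Both FGF2 arrays lay below both -GFs arrays for 17 members, and above them for 2. The 17 include MCM3, CDC6 and ESPL1 and the 2 include PCNA, members whose direction the filter favours. Among the 25 members detected on every array, 23 were lower. The share of all genes with groups that do not overlap was 29.2% in the lower and 24.6% in the higher direction. A gene was called modulated where limma gave an adjusted p under 0.1 (Benjamini-Hochberg over all genes tested) together with a log2 fold change beyond 1 in size. By this rule 1 member, BUB1B, was called lower, against 1.25% of all genes. The 8 stromal markers moved with FGF2 too, with 7 of 8 lower (87.5%, median -0.28) and 0 passing the adjusted p. Their summed linear level was 107000 and 107100 in -GFs medium, 90210 and 82570 with FGF2, and 111200 and 101000 with BMP4. Their part in the result was not tested.

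**Figure D1:**
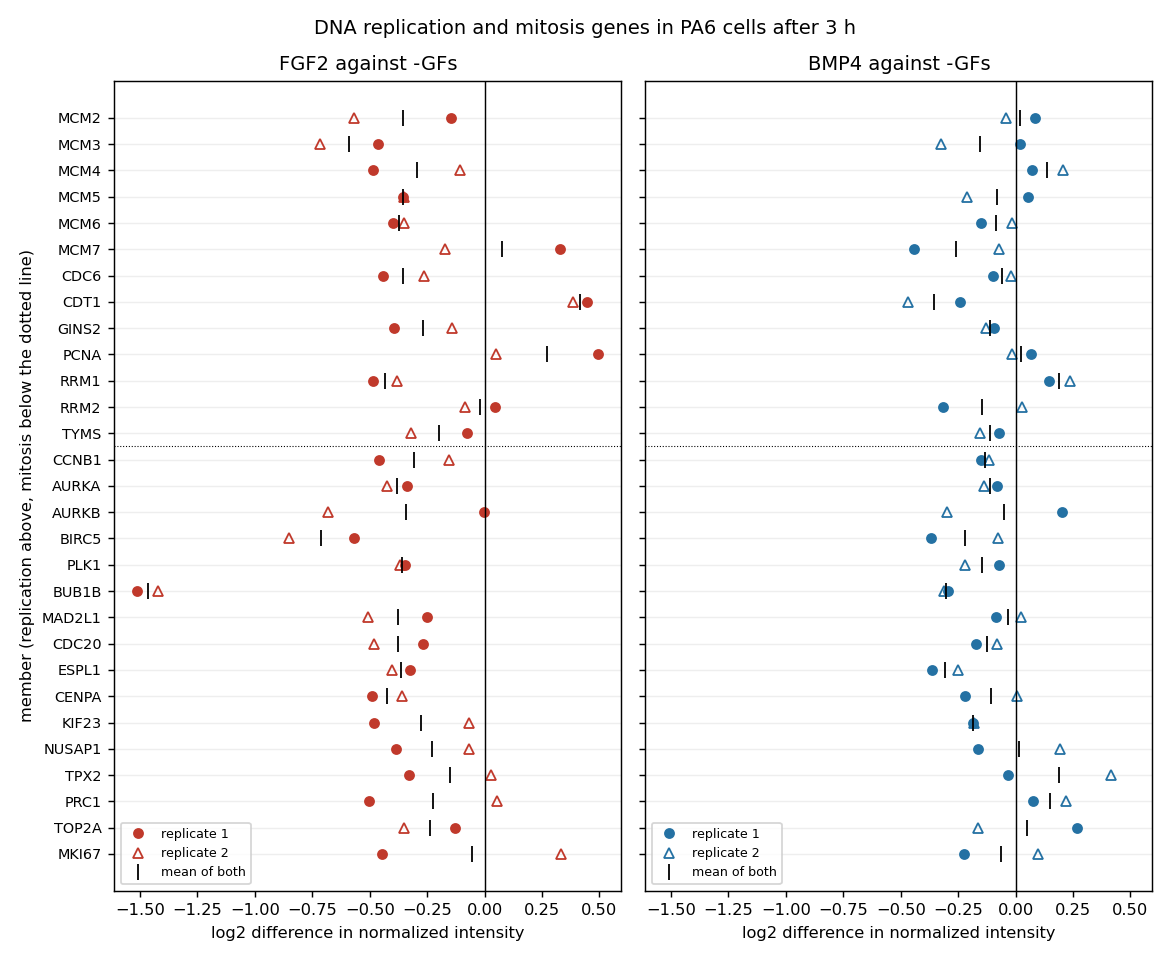
Log2 difference in normalized intensity from the -GFs array of the same replicate number, for the 29 members tested, with FGF2 (left panel) and with BMP4 (right panel). Filled circles are replicate 1, open triangles replicate 2 and black ticks the mean of both. With FGF2 nearly all members lie left of 0 and BUB1B stands apart at -1.47, while with BMP4 the means lie between -0.36 and 0.19.

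BUB1B encodes BUBR1, a kinase-like protein of the mitotic checkpoint complex that restrains CDC20. Its log2 intensity was 11.58 and 11.47 in -GFs medium, 10.07 and 10.05 with FGF2, and 11.28 and 11.16 with BMP4. Both FGF2 arrays lay far below the 4 others, and the arrays of a group were close to each other. The log2 fold change with FGF2 was -1.47 (standard error 0.14, adjusted p = 0.00697 with limma), which makes the level 2.77-fold lower. A second, dimmer probe of BUB1B changed by -0.67 with FGF2, so that the size depends on the probe. The call held in 17 of 18 alternative fits and was lost in the methods' t-test (adjusted p = 0.203). The methods name that test in their general statistics, and limma for the arrays. With BMP4 the difference of BUB1B was -0.30 (standard error 0.14, limma adjusted p = 0.999).

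The promoter of BUB1B is shown because it is the member that was called with FGF2, a choice made after its values had been seen. The window, from RefSeq, runs from 250 bases before to 50 after the annotated start, in GRCm38.p6 at chr2:118597961-118598260 on the plus strand, printed 5′ to 3′, with CHR and CCAAT matches in capitals.

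BUB1B: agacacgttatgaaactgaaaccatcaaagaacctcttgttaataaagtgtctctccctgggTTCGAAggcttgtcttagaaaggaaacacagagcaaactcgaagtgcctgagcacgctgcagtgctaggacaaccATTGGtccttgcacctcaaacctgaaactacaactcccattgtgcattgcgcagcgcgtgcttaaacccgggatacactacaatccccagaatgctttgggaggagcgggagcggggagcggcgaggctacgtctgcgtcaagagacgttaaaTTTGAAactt

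It holds 1 CCAAT box on the reverse strand (ATTGG) at -113 to -109 and 2 CHR matches, TTCGAA at -188 to -183 and TTTGAA at 41 to 46, counted from the start site as 1.

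Without the threshold on the fold, 2 members passed an adjusted p under 0.1 as lower (5.77% of all genes) and 0 as higher (6.03% of all genes). Arrays of 1 replicate number form a set, both in how the labels describe the wells and in their values. With the replicate number as a block, 14 members passed as lower (19.6% of all genes) and 1 as higher (18.1% of all genes), while the number called stayed at 1. The 2 include MCM3, and the 14 include MCM3, CDC6 and ESPL1, members whose direction the filter favours. The count under the block moved with the normalization, to 7 lower and 1 higher with neqc and to 19 lower and 0 higher with median scaling, combinations chosen after seeing the data. The number of members below 0, 26 on all arrays, moved with single arrays. Without -GFs replicate 1, 21 of 29 members were lower (median -0.26), and without FGF2 replicate 2, 19 of 29 (median -0.20). These fits had no block, so that a left-out array makes the replicate numbers unequal and their difference enters that of the groups. How much of the change this makes was not tested.

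Among the genes that license and open origins, 7 of 9 were lower with FGF2. MCM3, a subunit of the MCM ring, had log2 intensities of 7.81 and 8.07 in -GFs medium, 7.34 and 7.35 with FGF2, and 7.83 and 7.74 with BMP4. Both FGF2 arrays lay below all the others and MCM3 was not detected on either, and its decrease was at least 1.28-fold (fitted log2 fold change -0.59, standard error 0.16, limma adjusted p = 0.0767). MCM3 no longer passed without any 1 of the 6 arrays (adjusted p from 0.111 to 0.313). With neqc its difference was -1.40 (adjusted p = 0.0427), which made it the other member called under that normalization. The other ring subunits MCM2, MCM4, MCM5 and MCM6 had differences of -0.36, -0.30, -0.35 and -0.37, short of the threshold, and MCM2, MCM5 and MCM6 passed it with the block (limma adjusted p = 0.0736, 0.0671 and 0.0471). CDC6, the loader of the ring, lay at -0.35 (0.0614 with the block, -0.85 with neqc) and GINS2 at -0.27, while a second detected probe of GINS2 gave 0.01.

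CDT1, which loads the MCM ring with CDC6, went the other way. Its log2 intensity was 9.25 and 9.57 in -GFs medium, 9.70 and 9.95 with FGF2, and 9.01 and 9.10 with BMP4. The 3 groups did not overlap, FGF2 being the highest and BMP4 the lowest. The difference with FGF2 was 0.42 (standard error 0.18, limma adjusted p = 0.219, or 0.0311 with the block), and the difference with BMP4 was -0.36 (limma adjusted p = 0.999). MCM7 lay at 0.08 with FGF2, with 1 pair higher and 1 lower, and at -0.02 with median scaling.

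In DNA synthesis and nucleotide supply, the large subunit of ribonucleotide reductase, RRM1, had log2 intensities of 9.36 and 9.40 in -GFs medium, 8.87 and 9.02 with FGF2, and 9.50 and 9.64 with BMP4. Both FGF2 arrays were the lowest and both BMP4 arrays the highest. With FGF2 the difference was -0.43 (limma adjusted p = 0.136, or 0.0230 with the block), and a second probe gave -0.48. PCNA, the sliding clamp, was at 7.47 and 7.83 in -GFs medium, 7.97 and 7.88 with FGF2, and 7.54 and 7.82 with BMP4. Its FGF2 arrays lay just above the others. PCNA was not detected on -GFs replicate 1 or BMP4 replicate 1, and the fitted difference of 0.27 did not pass (limma adjusted p = 0.435). For RRM2 the probe used changed by -0.02 and the other detected probes by -0.43 and -0.58, and for TYMS the probes gave -0.20 and 0.14.

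In mitosis, the cyclin CCNB1 had log2 intensities of 9.60 and 9.23 in -GFs medium, 9.14 and 9.08 with FGF2, and 9.45 and 9.12 with BMP4. Both FGF2 arrays lay below both -GFs arrays, with FGF2 replicate 1 just above BMP4 replicate 2. The difference of -0.31 from -GFs medium did not pass (limma adjusted p = 0.395). A second detected probe of CCNB1 gave -0.17, and by it both FGF2 arrays lay above -GFs replicate 2, so that the groups overlapped. BIRC5, the survivin subunit of the chromosomal passenger complex, was at 10.66 and 10.31 in -GFs medium, 10.09 and 9.46 with FGF2, and 10.29 and 10.24 with BMP4. The FGF2 arrays were the lowest, and all 3 detected probes of BIRC5 were lower with FGF2 (-0.71, -0.49 and -0.57). The test gave limma adjusted p = 0.132, or 0.00175 with the block. The kinases AURKA, AURKB and PLK1 lay at -0.38, -0.34 and -0.36, and AURKA and PLK1 passed with the block.

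In the checkpoint and anaphase group, besides BUB1B, all of MAD2L1 (-0.38), CDC20 (-0.38) and ESPL1 (-0.36) were lower and passed with the block, but not without it. CDC20, which activates the anaphase-promoting complex, had log2 intensities of 11.34 and 11.03 in -GFs medium, 11.07 and 10.54 with FGF2, and 11.16 and 10.94 with BMP4. FGF2 replicate 1 lay above -GFs replicate 2, so that the groups overlapped. ESPL1, the separase that cuts cohesin, was detected on the -GFs arrays alone and passed the filter through them, so that the filter favours the direction of its difference. Its bound was at least 1.20-fold lower with either factor, but the difference did not pass (limma adjusted p = 0.203 with FGF2 and 0.999 with BMP4), and with neqc it was -0.90 with FGF2 (adjusted p = 0.0953). A second probe of MAD2L1 changed by -0.05.

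CENPA, the histone variant of the centromere, was at 12.57 and 12.00 in -GFs medium, 12.08 and 11.64 with FGF2, and 12.35 and 12.00 with BMP4. Its FGF2 array was the lowest of each replicate number, and the difference of -0.42 passed with the block (limma adjusted p = 0.0277) but not without it (0.378). The spindle genes KIF23, NUSAP1, TPX2 and PRC1, with TOP2A and MKI67, had the smallest differences among the mitosis members, from -0.27 to -0.06. None of these 6 passed with the block. The values are those of the probes used, and the probe filed under KNSL5, an older name of KIF23, gave -0.41.

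With BMP4 no member passed. By limma 0 of 29 had an adjusted p under 0.1, against 0.00842% of all genes. An unadjusted p under 0.05 was reached by 0 of 29, against 215 of the 11872 genes tested. The count at the adjusted threshold was 0 in the methods' t-test and with the block too. With the block CDT1, ESPL1 and BUB1B had an unadjusted p under 0.05 (3 of 29, or 10.3%, against 7.04% of all genes). Of these, ESPL1 passed the filter only through the -GFs group, which favours the direction of its difference. The log2 fold changes lay between -0.36 (CDT1) and 0.19 (RRM1), with a median of -0.11 in the members and 0.00 in all genes, and 21 of 29 were below 0 (72.4%, against 49.6% of all genes). In 14 members both pairs were lower (48.3%, against 27.4% of all genes) and in 3 both were higher (10.3%, against 28%). Without BMP4 replicate 2 the number below 0 was 16 of 29, in a fit without the block and so with unequal replicate numbers.

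Set against each other at 3 h, FGF2 and BMP4 gave few members that passed without the block, and more with it. With FGF2, 24 of 29 members were lower than with BMP4 (median -0.27), against 53.3% of all genes. In 22 members both pairs were lower (75.9%, against 38.9% of all genes) and in 2 both were higher (6.9%, against 33.7%). The 22 include MCM3 and CDC6 and the 2 include PCNA, members whose direction the filter favours. BUB1B was called lower (-1.16, standard error 0.14, limma adjusted p = 0.0110, 1.04% of all genes called lower). RRM1 also passed as lower (-0.62, standard error 0.15, limma adjusted p = 0.0662), so that 2 members did, against 4.22% of all genes. CDT1 passed as higher (0.77, standard error 0.18, limma adjusted p = 0.0615, 4.84% of all genes). With the block 9 members passed as lower (17.8% of all genes) and 1 as higher (16.3% of all genes). The 9 include MCM3, whose direction the filter favours. All 3 members lost their place without either FGF2 array (BUB1B at adjusted p = 0.105 and 0.125), and RRM1 and CDT1 without either BMP4 array as well. Both comparisons share the FGF2 arrays, and their values are not independent.

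**Figure D2:**
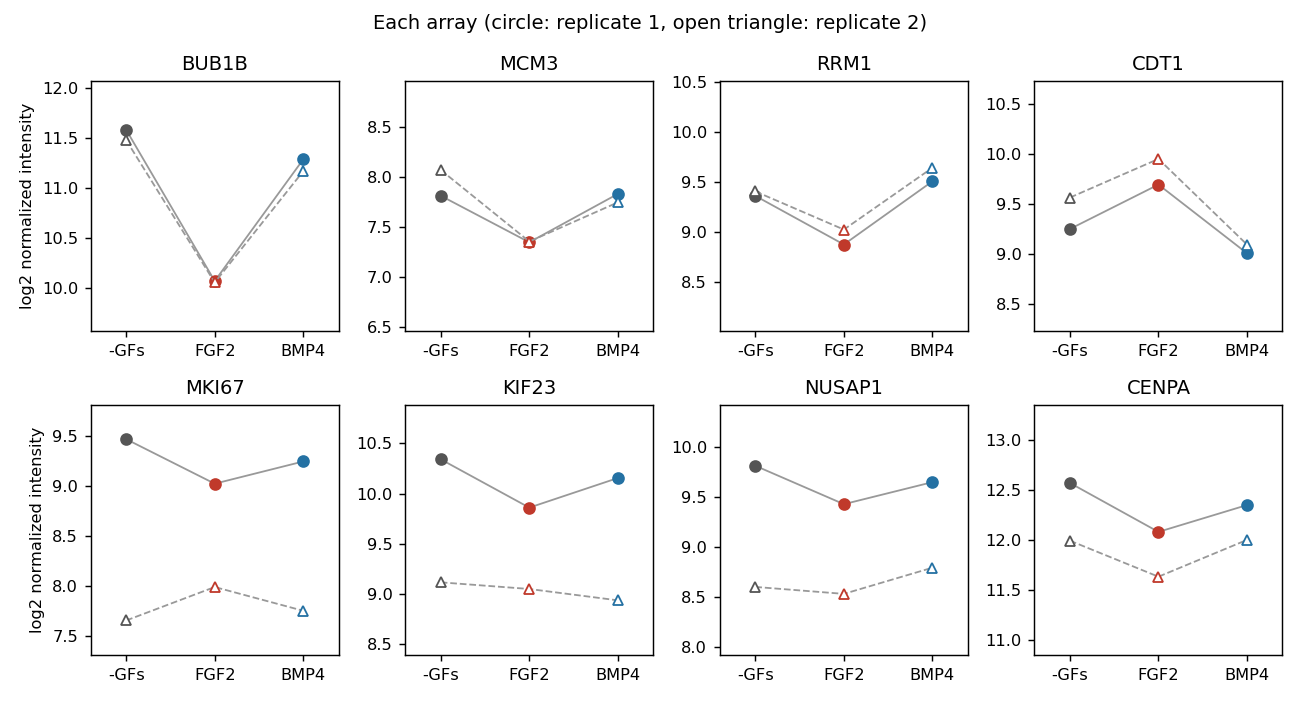
Log2 normalized intensity on each of the 6 arrays for 8 members, on axes of equal length. Circles joined by a solid line are replicate 1 and open triangles joined by a dashed line replicate 2. In the upper row the arrays of a group lie close together for BUB1B. For CDT1 the -GFs arrays lie further apart (9.25 and 9.57), and for MCM3 the -GFs and BMP4 arrays overlap. For MKI67 (9.02 to 9.47 in replicate 1 and 7.65 to 7.99 in replicate 2), KIF23 and NUSAP1 in the lower row, the arrays of a replicate number lie close together. For CENPA the replicate numbers do not overlap but lie near each other, at 12.08 to 12.57 and at 11.64 to 12.00.

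The largest differences among these genes, other than that of BUB1B, were between the replicate numbers. In the 3 wells of replicate 2, 15 of 16 mitosis members were lower than in the 3 wells of replicate 1 (median -0.35), while 10 of 13 replication members were higher (median 0.12). The median over all genes was 0.02, and 45.7% of them were lower. By limma with the group in the model, 2 members were called lower (0.699% of all genes), MKI67 and KIF23. Each replicate number is 1 set of 3 wells. The p-values between the replicate numbers therefore rest on the spread of wells within the sets, and not on repeated cultures. Whatever the fold, 10 passed as lower (16% of all genes) and 1 as higher (12.8% of all genes). All 3 arrays of replicate 2 lay below all 3 of replicate 1 for 8 members (11.8% of all genes), and above them for 0 (9.75% of all genes). Of the 10, 9 were mitosis members and 1 was MCM4.

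**Figure D3:**
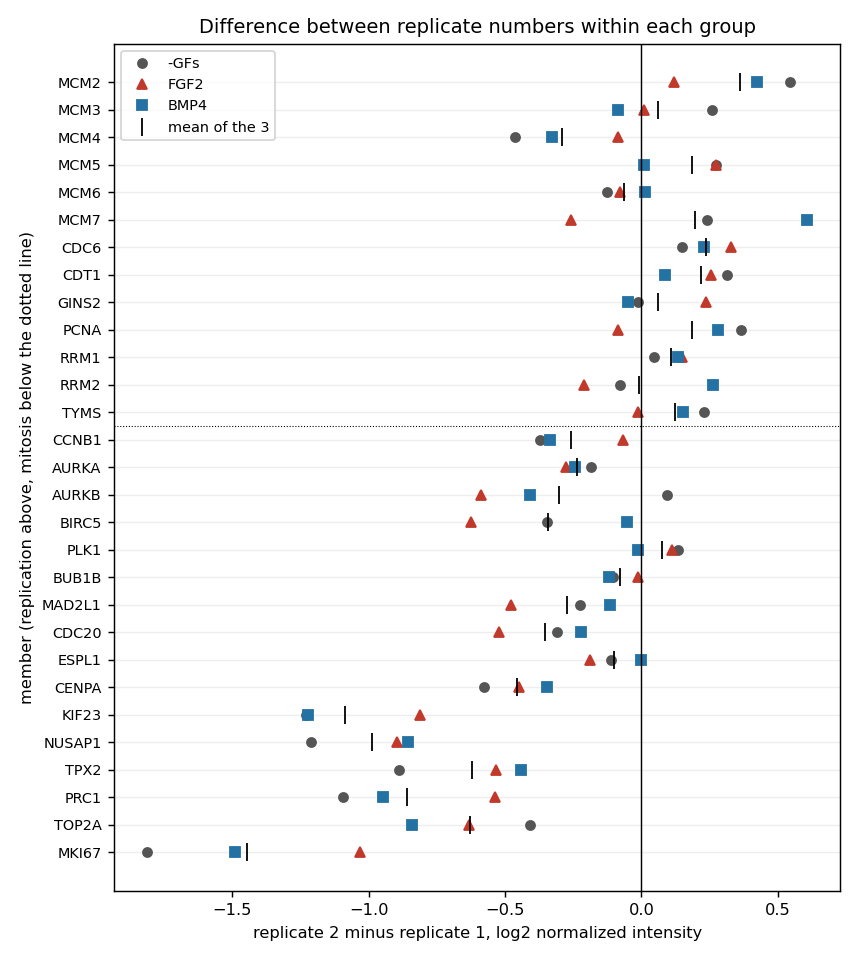
Difference of replicate 2 from replicate 1 within each group, in log2 normalized intensity, for the 29 members tested. Circles are -GFs, triangles FGF2 and squares BMP4 wells, and black ticks the mean of the 3. MKI67, KIF23, NUSAP1, PRC1, TPX2 and TOP2A lie at or left of -0.41 in every group, while most replication members lie near or right of 0.

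MKI67, which encodes the Ki-67 protein that coats mitotic chromosomes and marks cycling cells, was at 9.47, 9.02 and 9.24 in replicate 1 and at 7.65, 7.99 and 7.75 in replicate 2, in the order -GFs, FGF2 and BMP4. The gap between the replicate numbers exceeded any difference between the groups. Replicate 2 was lower by a log2 fold change of -1.45 (standard error 0.13, limma adjusted p = 1.32e-06), or -2.39 with neqc. In replicate 2 MKI67 was close to the detection limit, with a detection p of 0.0417, 0.00427 and 0.0310. KIF23, a motor of the central spindle that is needed for cytokinesis, was at 10.34, 9.86 and 10.16 in replicate 1 and at 9.11, 9.05 and 8.93 in replicate 2. The replicate numbers did not overlap, and the difference was -1.09 (standard error 0.12, limma adjusted p = 6.84e-06). A second detected probe of KIF23 gave -0.73. A probe filed under KNSL5, which RefSeq lists as an older name of KIF23 and which the rule does not take, went the other way, from 11.26, 10.82 and 11.36 in replicate 1 to 11.68, 11.29 and 11.65 in replicate 2 (0.39, standard error 0.11, limma adjusted p = 0.0184). It was brighter than the KIF23 probe used on every array, so that the direction for KIF23 depends on the name taken.

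NUSAP1, a protein that binds spindle microtubules to chromosomes, was at 9.81, 9.43 and 9.65 in replicate 1 and at 8.60, 8.53 and 8.79 in replicate 2. All of replicate 2 lay below all of replicate 1, by -0.99 (standard error 0.12, limma adjusted p = 1.39e-05), just short of the threshold on the fold. PRC1, which bundles the microtubules of the central spindle, differed by -0.86, and TPX2, an activator of AURKA, by -0.62 (-1.21 with neqc). TOP2A, the topoisomerase that untangles chromosomes, was at 8.61, 8.48 and 8.88 in replicate 1 and at 8.20, 7.85 and 8.04 in replicate 2. Its difference was -0.63 (standard error 0.12, limma adjusted p = 0.000949), or -1.08 with neqc, and a second probe gave -0.60.

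Smaller differences passed for CENPA (-0.46, limma adjusted p = 0.00732), CDC20 (-0.35, 0.0360), BIRC5 (-0.34, 0.0566) and MCM4 (-0.29, 0.0842). The replicate numbers did not overlap for CENPA and CDC20, but they did for BIRC5 and MCM4. MCM2 alone passed as higher in replicate 2 (0.36, standard error 0.12, limma adjusted p = 0.0364). These rested on the processing and on single arrays, since of 16 alternatives MCM4 no longer passed in 9, BIRC5 and MCM2 in 7 each, CDC20 in 5 and CENPA in 1. MCM4 and MCM2 did not pass without any 1 of the -GFs or BMP4 arrays, BIRC5 without any 1 of the -GFs or FGF2 arrays, and CDC20 without -GFs replicate 1 or either FGF2 array (limma adjusted p from 0.116 to 0.432). With neqc the limma adjusted p was 0.131 for CDC20, 0.173 for BIRC5, 0.212 for MCM4 and 0.102 for MCM2. Other detected probes gave -0.01, -0.33 and -0.66 for CDC20, and -0.04 and -0.28 for BIRC5. BUB1B, the member that moved most with FGF2, differed by -0.08 between the replicate numbers (limma adjusted p = 0.668).

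**Figure D4:**
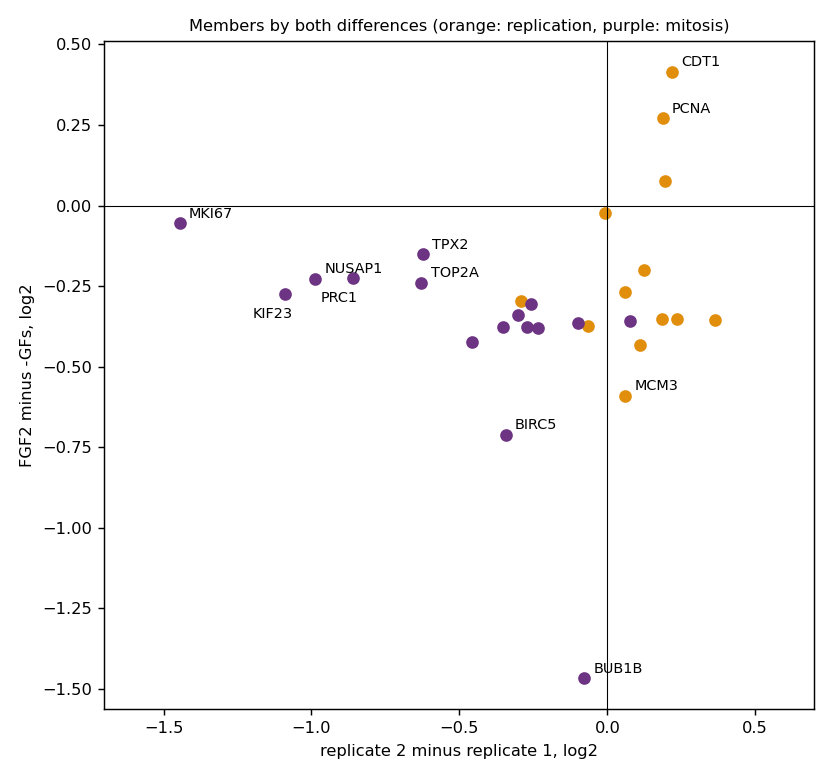
The 29 members by their replicate difference (horizontal axis) and by their FGF2 difference (vertical axis), both in log2 normalized intensity, with replication members in orange and mitosis members in purple. BUB1B lies at -0.08 and -1.47, and MKI67 at -1.45 and -0.06, so that the members with the largest value on each axis are different genes.

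The promoters of the 5 members with the largest replicate difference are shown because these genes were lower together in the wells of replicate 2. They are RefSeq windows of GRCm38.p6 of the same kind as that of BUB1B, printed 5′ to 3′ on the strand of the gene, with CHR and CCAAT matches in capitals. MKI67 lies on the minus strand at chr7:135716330-135716629, KIF23 on the minus strand at chr9:61946750-61947049, NUSAP1 on the plus strand at chr2:119618048-119618347, PRC1 on the plus strand at chr7:80294201-80294500 (the first of 2 windows), and TOP2A on the minus strand at chr11:99024140-99024439.

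MKI67: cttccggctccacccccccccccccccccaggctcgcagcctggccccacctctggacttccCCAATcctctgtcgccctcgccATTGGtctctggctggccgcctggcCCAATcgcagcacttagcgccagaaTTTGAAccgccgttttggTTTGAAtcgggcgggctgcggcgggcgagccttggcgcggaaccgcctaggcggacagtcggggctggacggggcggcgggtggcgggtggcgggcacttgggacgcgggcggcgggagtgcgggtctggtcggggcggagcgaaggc

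KIF23: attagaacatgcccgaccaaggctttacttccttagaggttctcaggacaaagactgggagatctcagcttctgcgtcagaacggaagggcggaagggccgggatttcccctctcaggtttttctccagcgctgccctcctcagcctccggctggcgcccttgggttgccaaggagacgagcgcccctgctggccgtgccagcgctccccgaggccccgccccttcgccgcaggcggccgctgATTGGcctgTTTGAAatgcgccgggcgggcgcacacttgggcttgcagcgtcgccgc

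NUSAP1: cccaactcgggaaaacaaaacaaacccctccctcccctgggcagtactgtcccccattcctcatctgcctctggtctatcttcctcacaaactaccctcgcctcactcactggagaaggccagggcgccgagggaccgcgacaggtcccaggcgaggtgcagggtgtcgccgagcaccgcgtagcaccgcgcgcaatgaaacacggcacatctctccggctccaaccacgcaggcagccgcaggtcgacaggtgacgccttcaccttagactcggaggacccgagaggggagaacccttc

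PRC1: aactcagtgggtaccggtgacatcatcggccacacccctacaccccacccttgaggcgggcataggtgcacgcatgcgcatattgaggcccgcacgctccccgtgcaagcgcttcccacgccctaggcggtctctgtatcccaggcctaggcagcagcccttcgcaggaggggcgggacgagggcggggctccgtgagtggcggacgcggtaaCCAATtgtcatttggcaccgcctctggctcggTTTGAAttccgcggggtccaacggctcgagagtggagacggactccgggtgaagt

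TOP2A: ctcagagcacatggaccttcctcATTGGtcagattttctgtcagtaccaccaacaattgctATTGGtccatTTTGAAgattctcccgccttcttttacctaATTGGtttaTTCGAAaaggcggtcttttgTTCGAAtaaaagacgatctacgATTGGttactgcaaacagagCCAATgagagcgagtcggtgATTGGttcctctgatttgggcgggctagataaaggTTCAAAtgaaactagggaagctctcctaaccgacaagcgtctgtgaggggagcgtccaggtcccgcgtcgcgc

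MKI67 holds 3 CCAAT boxes between -188 and -137 and 2 CHR matches at -116 to -111 and -98 to -93. KIF23 has 1 of each, a CCAAT box at -7 to -3 and a CHR match at 3 to 8, and PRC1 a CCAAT box at -37 to -33 and a CHR match at -5 to 1. TOP2A is the richest, with 6 CCAAT boxes and 4 CHR matches. The window of NUSAP1 holds neither, which says only that these letters are not in this window.

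Of the 38 members, 32 had a window. The motifs were searched on both strands, the CHR as TTTGAA or TTCGAA, the CCAAT box as CCAAT, and the E2F site as TTT and CGC with C or G at each of the 2 places between them, and no word of one motif contains a word of another. A CHR match was in 16 of 21 mitosis members (76.2%) and in 2 of 11 replication members (18.2%), against 21.7% of all 27025 genes of the table. A CCAAT box was in 18 of 21 mitosis members (85.7%) and 8 of 11 replication members (72.7%), against 41.1% of all genes. An E2F match was in 0 of 21 mitosis members and 6 of 11 replication members (54.5%), against 2.6% of all genes. The 6 were MCM3, MCM5, MCM6, MCM7, CDC6 and CDT1. Matches describe letters and are not sites shown to be used.

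Other genes of the same processes, from lists of names, were read on the same arrays. With FGF2, 30 of 39 other replication genes were lower (median -0.18), with 5 passing as lower and 1 as higher by limma (5.77% and 6.03% of all genes). Those that passed with the largest differences were E2F1, the transcription factor of the replication genes (-0.77, adjusted p = 0.0582), TK1, a thymidine kinase (-0.71, 0.0451), LIG1, the ligase of the lagging strand (-0.66, 0.0743), and CHAF1A, a histone chaperone (-0.59, 0.0752). DNMT1, the maintenance methyltransferase, passed as higher (0.55, 0.0888), named here as the only one. Of 53 other mitosis genes 40 were lower (median -0.19), with 6 passing as lower and 0 as higher. With the block, 11 replication genes passed as lower and 3 as higher, and 19 and 2 mitosis genes did, against 19.6% and 18.1% of all genes. KIF22, a chromosome motor, was called lower (adjusted p = 0.0438), and NCAPD2, a condensin subunit (-0.72, 0.0644), D2ERTD750E, the array's name for Knstrn (-0.68, 0.0752), and CDC25B, a phosphatase that activates cyclin-dependent kinases (-0.68, 0.0794), passed short of the threshold on the fold.

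Of 12 cyclin-dependent kinase inhibitors and repressors of E2F targets, CDKN2C fell by 0.96 with FGF2 (limma adjusted p = 0.0509) and E2F4 rose by 0.72 (0.0540), and the 10 others did not pass. With BMP4 no gene of these 3 lists passed. Between the replicate numbers, 39 of 53 other mitosis genes were lower in replicate 2 (45.7% of all genes), and 25 passed as lower and 0 as higher (16% and 12.8% of all genes). Those with the largest differences were SGOL2, a protector of cohesin (-0.97), CKAP5, a microtubule polymerase (-0.83), PBK, a mitotic kinase (-0.78), and ANLN, a scaffold of the cleavage furrow (-0.76). Of 39 other replication genes 21 were lower and 5 passed as lower, both near the shares over all genes, with RFC1, the clamp loader, at -0.71. Of the 12 inhibitors and repressors, 3 passed as lower in replicate 2 and 1 as higher (16% and 12.8% of all genes). The largest difference was that of RB1, the retinoblastoma protein, at -0.77.

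**Figure D5:**
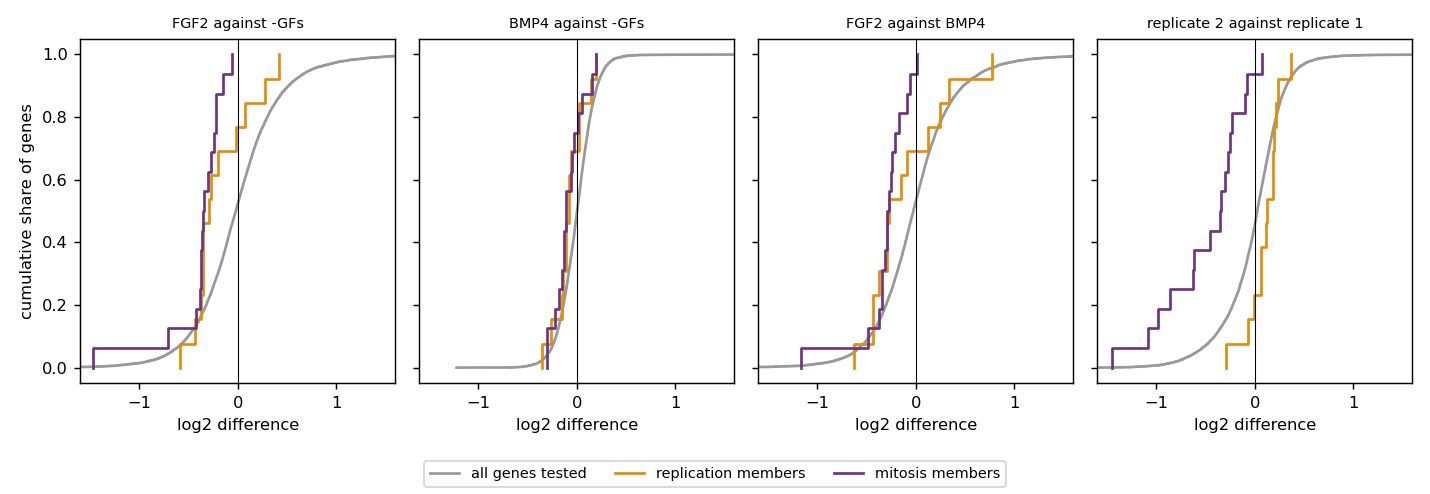
Cumulative share of genes by log2 difference for the 4 comparisons, with all 11872 genes tested in grey, the 13 replication members in orange and the 16 mitosis members in purple. Both sets of members lie left of all genes with FGF2, while between the replicate numbers the mitosis members lie left (median -0.35) and the replication members right (median 0.12).

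Markers of fat cells moved with the replicate numbers too. Of 10 adipocyte names, 3 to 4 were detected per array in replicate 1 and 6 to 7 in replicate 2, and their summed linear level was 3667 to 4033 in replicate 1 and 6970 to 8132 in replicate 2. All 5 names tested were higher in replicate 2, with LPL (1.82) and CFD (1.74) called by limma, while FABP4, CD36 and RETN were not detected on any array. Of the 8 stromal markers, COL3A1 (0.87) and COL1A2 (0.47) were higher and THY1 (-0.51) and CXCL12 (-0.46) lower in replicate 2. The part of these differences in the mitosis genes was not tested. The labels do not say what separates the replicate numbers beyond their being biological replicates, so that day, passage and density cannot be told apart.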

How the data were processed

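The authors deposited a bead intensity, not yet normalized, with its detection p-value for every probe on each array. According to the methods, scans were processed with BeadStudio and normalized by a cubic spline in GenomeStudio V2011.01. No genome build is given for the array data in the sources used here. Left out were 9 unheaded columns of the table, which hold values on 2045 of its lines, and 6 stray lines.

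From the intensities, the cubic spline was re-implemented in R 4.3.3 (452 quantiles per array) followed by log2. The filter kept probes detected (p under 0.05) on both arrays in 1 or more groups, and each gene was read from its probe of largest mean. limma 3.58.1 was fitted on all 6 arrays, for the groups without a block (3 residual degrees of freedom), and for the replicate number with the group as a term (2). Unless an alternative is named, an adjusted p is limma's after Benjamini-Hochberg adjustment over all 11872 genes, and "passed" means one under 0.1. The procedure was tested on simulated data. Where neither array of a group detected a probe, the bound sets the brighter mean against, on each dim array, the higher of its own signal and the lowest detected signal.

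The 38 members, the lists and the tests were chosen with earlier results of these data known. Values by array are given for MKI67, PCNA, CCNB1 and TOP2A, and for members with an adjusted p under 0.1 in at least 1 comparison (the 2 of each role with the largest difference). At most 4 genes of a list are named by size, and names that RefSeq gives to 1 gene count once, by the name with the largest mean. Promoters are those of the 5 members with the largest difference in the comparison with most calls.

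The arrays are paired by replicate number. A biological replicate is, in the labels, a set of wells, and arrays of the same number deviated together from their group means (correlation across genes 0.602, 0.741 and 0.579). The alternatives were other normalizations, detection filters, probe rules, thresholds and tests, the replicate block, and each array left out.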

Additional observations from a re-analysis of the deposited data

How the results depend on the processing

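No alternative turned the sign of a median, of a call or of a member that passed without the block. Of those that passed only with the block, PRC1 for FGF2 against BMP4 was lower in 20 of 21 settings and turned to 0.10 in 1. No alternative read KIF23 from the brighter probe filed under KNSL5, which was higher in replicate 2. Over 16 results of members that passed, 265 alternative fits gave 212 that kept the adjusted p under 0.1 and 53 that did not. MKI67, KIF23, NUSAP1 and PRC1 passed between the replicate numbers in all 16 of their alternatives. Each of these fits compares 1 set of wells with 1 other, so that none measures the spread between cultures. The count of members called for FGF2 against -GFs, 1 as reported, was 2 with neqc, 2 with neqc and the replicate block, 2 without the threshold on the fold, 0 with the methods' t-test (1 at an unadjusted p under 0.05), and 1 with any array left out. With the replicate block and no threshold on the fold, chosen after seeing the data, it was 15, or 8 with neqc and 19 with median scaling. For FGF2 against BMP4, 1 as reported, it was 2 with neqc, 2 with neqc and the replicate block, 3 without the threshold on the fold, 0 with the mean of the probes, 0 with the methods' t-test (1 at an unadjusted p under 0.05), and 0 to 1 with arrays left out (0 without FGF2 replicate 1 or FGF2 replicate 2). With the replicate block and no threshold on the fold it was 10, or 5 with neqc and 7 with median scaling. Between the replicate numbers, 2 as reported, it was 5 with neqc, 3 with median scaling, 1 with the mean of the probes, 11 without the threshold on the fold, 2 without the group as a term, and 2 to 4 with arrays left out (4 without FGF2 replicate 1 or FGF2 replicate 2). For BMP4 against -GFs it was 0 in every alternative. The replicate block changed no call made with the threshold on the fold.

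The median log2 fold change of the members for FGF2 against -GFs, -0.34 as reported, was -0.41 with neqc, -0.40 with median scaling, -0.31 with detection on all 6 arrays or a detection p under 0.01, -0.32 with detection on at least 1 array, -0.27 without the filter, -0.33 with the mean of the probes, and -0.45 to -0.20 with arrays left out. For BMP4 against -GFs, -0.11 as reported, it was -0.12 with neqc, -0.18 with median scaling, -0.0709 without the filter, -0.0629 with the mean of the probes, and -0.19 to -0.0479 with arrays left out. For FGF2 against BMP4, -0.27 as reported, it was -0.33 with neqc, -0.23 without the filter, and -0.43 to -0.10 with arrays left out. Between the replicate numbers, -0.10 as reported, it was -0.24 with neqc, -0.26 with detection on all 6 arrays, -0.17 on at least 1 array, -0.24 with a detection p under 0.01, and -0.15 to -0.09 with arrays left out. Stricter filters test fewer members, and a left-out array leaves a group with 1 array that is assumed to vary like the others. In the group comparisons it also leaves unequal replicate numbers, as those fits had no block. The other causes were not tested. Matching members through older names added no member, and the precision is that of 2 arrays per group.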
